A study of Mus musculus with 3 samples.

Results

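The mRNAs of the mitochondrial ribosomal proteins were examined in RNA immunoprecipitation sequencing (RIP-seq) of YTHDF2, a cytoplasmic protein that reads N6-methyladenosine (m6A) in mRNA and recruits deadenylases to the transcripts it binds. The genes were chosen by name alone, as every gene in the count table called Mrpl or Mrps followed by digits and optional letters, and 6 pseudogene entries (names ending in -ps and an optional digit) were left out. This gave 78 of the 49997 genes in the table, 49 named for the large subunit and 29 for the small subunit, and all 78 had enough reads to be tested. The cells were mouse embryonic stem cells (ESCs) of the line E14, all treated with doxycycline (Dox) for 24 h, and in the system that the study describes these cells carry a Dox-inducible Dux transgene and a tdTomato reporter driven by the MERVL promoter. 1 library was made from input RNA and 2 libraries, replicates 1 and 2, from RNA recovered with an antibody to YTHDF2. No cells without Dox are among these libraries, so each comparison is of IP with input within Dox-treated cells, and it asks which of these mRNAs were more or less abundant in the material recovered with YTHDF2 than in the input. Markers of mouse ESCs were present throughout, with summed levels of 9102 CPM (counts scaled to equal library totals) in the input and 9615 and 9575 after IP, over 10 of 10 markers tested, while 7 fibroblast markers summed to 29.2, 16.0 and 17.1, and 4 of them had at most 3 counts in the input.

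Mitochondria translate their own small set of mRNAs, which encode core subunits of the respiratory chain, on ribosomes of their own. The RNA of these ribosomes is encoded in the mitochondrial genome, but every protein of them is encoded in the nucleus, made in the cytosol and imported, so the mRNAs counted here are nuclear transcripts that cytosolic proteins such as YTHDF2 can meet. Many of the proteins have counterparts in the bacterial ribosome, and others were added during the evolution of mitochondria. The large subunit forms peptide bonds and holds the peptide tunnel, the stalk that recruits translation factors and the central protuberance at the subunit interface, while the small subunit binds the mRNA and decodes it.

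YTHDF2 binds m6A, which is deposited within a short consensus, and GGACT is the sequence most often given for it. It was therefore searched for on the sense strand of the 1 RefSeq Select mRNA of each gene, and all 78 genes had such an mRNA. The motif occurred in 60 of 78 members (76.9%) and in 86.4% of 20962 RefSeq Select mRNAs. Among mRNAs of at most 1500 bases it occurred in 37 of 54 members (68.5%) and in 64.4% of 5859 mRNAs. The copy nearest the stop codon is shown with 12 bases on each side for the strongest enriched members that hold one, and for the depleted members that do, with the motif in capitals, written 5′ to 3′ as mRNA sense from RefSeq on GRCm38 (mm10).
Mrps7, 3′ UTR, chr11:115607562-115607590, plus strand: caggtccaatctGGACTagaataaagacc
Mrpl43, coding, chr19:45005753-45005781, minus strand: tcaccaacaaacGGACTgccctccacggg
Mrpl12, 3′ UTR, chr11:120488436-120488464, plus strand: gcatggttatgaGGACTtacggactagag
Mrps26, coding, chr2:130564985-130565013, plus strand: agaagaagcgttGGACTctccgaagagtt
Mrpl53, coding, chr6:83109124-83109152, plus strand: ttggctcggctcGGACTacggccggtcaa
Mrpl1, coding, chr5:96231692-96231720, plus strand: cgaggttgttgtGGACTtttatgtagctg
Mrps22, coding, chr9:98598203-98598231, minus strand: gattacaggcctGGACTtgcagaagactt
The Mrpl12 window lies 16 bases past the start of the stop codon and holds another copy, left in lower case. Mrpl54, among the most enriched members, and Mrps31, among the depleted ones, had no copy. The motif was thus found on both sides of the comparison, and the sequences alone do not say whether an adenosine was methylated in these cells.

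More of the members were enriched than depleted, and a few of them by a wide margin. Of the 78, 17 (21.8%) were enriched in the IP, called at an adjusted p-value under 0.05 in edgeR's quasi-likelihood test and a fold change over 2, where 15.0% of the 19601 genes tested and 15.3% of the 15011 with a RefSeq Select mRNA were. 3 members (3.85%) were depleted by the same rule, where 13.0% of all genes tested and 12.5% of those with a RefSeq Select mRNA were. At any fold, 39 members were higher in the IP and 24 lower at an adjusted p-value under 0.05, against 28.4% and 28.9% of all genes, and 15 passed in neither direction. The median log2 fold change was 0.23 in the large subunit and 0.15 in the small subunit, beside 0.01 over all genes tested. After a trend on GC content was removed from the fold changes, these medians were 0.13 and 0.03, beside -0.04 over all genes tested. The 2 IP libraries gave nearly the same ratios. Both lay on the same side of the input for 76 of the 78 members, and the largest difference between them was 0.21 on the log2 scale, where the fold changes of the members had an SD of 0.94.

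**Figure D1:**
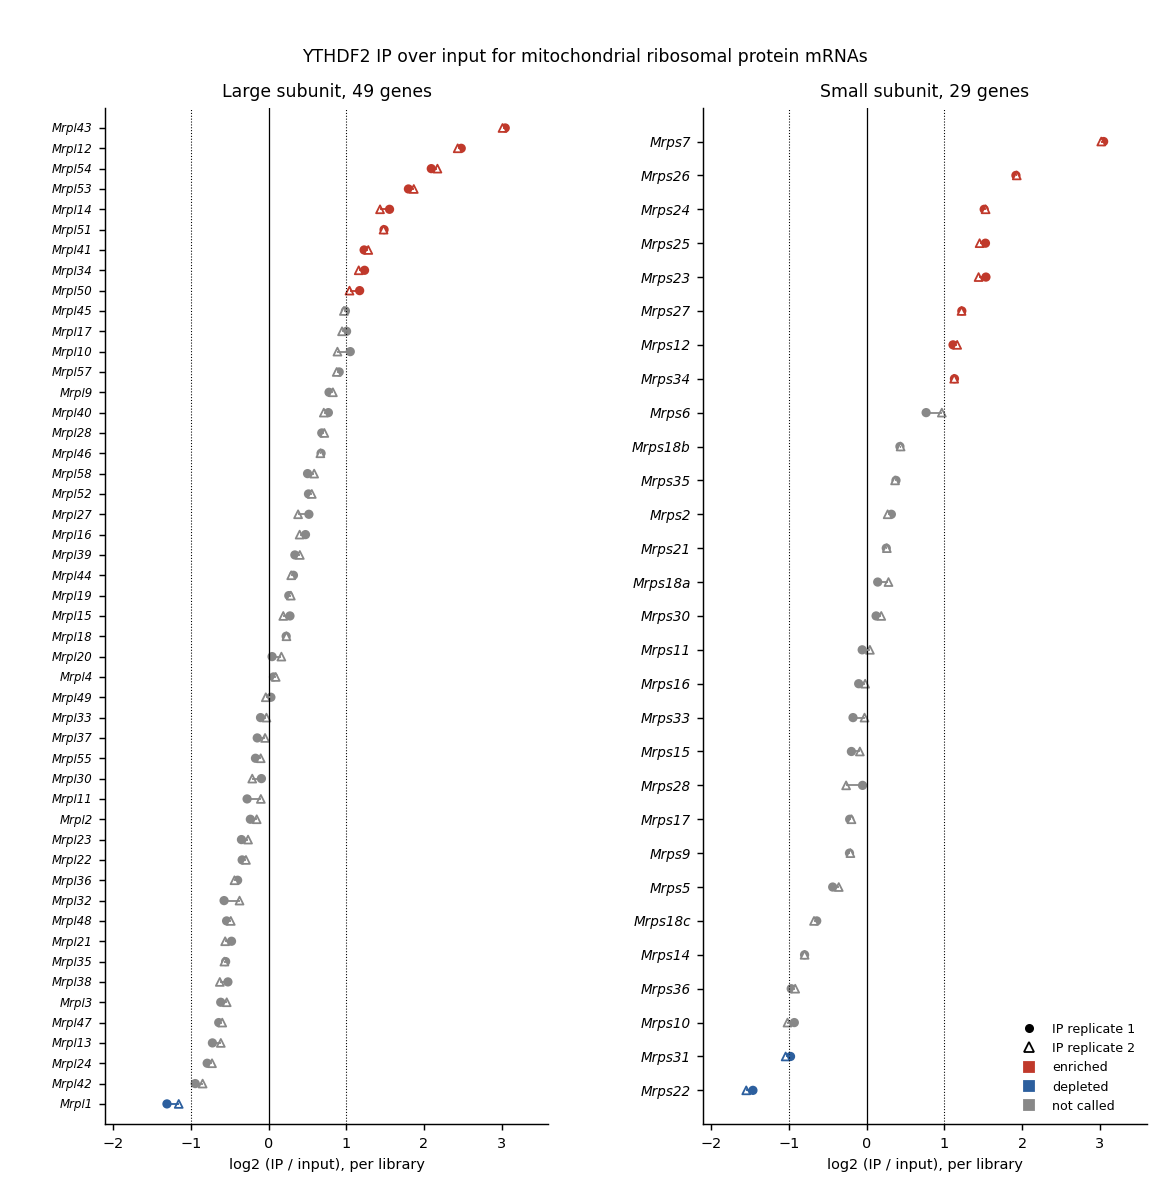
Log2 ratio of each YTHDF2 IP library to the input (horizontal axis) for the 49 large subunit genes and the 29 small subunit genes, ordered by the fitted fold change. Filled circles are IP replicate 1, open triangles IP replicate 2, colours give the call and dotted lines mark a fold of 2. Mrps7, Mrpl43 and Mrpl12 stand at the top of their subunits, 17 genes are enriched, 3 are depleted and most of the rest spread between the dotted lines.

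The members together took 0.509% of all counts in the input (95% Wilson interval 0.507 to 0.511) and 0.800% (0.797 to 0.803) and 0.793% (0.791 to 0.796) in IP replicates 1 and 2. The intervals cover counting error only, and since both mates of a fragment were counted singly, they are too narrow even for that. Without Mrps7, Mrpl43 and Mrpl12 the shares were 0.491% before IP and 0.671% and 0.669% after it, so the share was higher after IP without these 3 genes too.

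In the large subunit, Mrpl43 showed the highest fold change. It lies at chr19:45005014-45006442 on mm10, encodes a protein that the bacterial ribosome lacks, and its counts were 611 in the input and, after IP, 5149 in replicate 1 and 5099 in replicate 2. Both IP libraries stood far above the input. The log2 fold change was 3.03 ± 0.09, or 8.16-fold, with an adjusted p of 1.57e-26 in edgeR's quasi-likelihood test. The value after ± here and below is an SE worked back from the fold change and the F statistic of that test. The gene overlaps Twnk, the gene of the mitochondrial DNA helicase on the opposite strand, over 31.7% of its exonic length. Twnk itself was enriched, with 1856 input counts against 5900 and 6145 after IP and a log2 fold change of 1.66. The counts did not use strand, but reads over exons of both genes were left out by the default of the counting tool, so the Mrpl43 count comes from the rest of its exons.

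Of the 5 groups by place or family, the proteins of the stalk and its base had the highest median. The stalk is the flexible arm through which ribosomes recruit the GTPases of translation. Of its 5 members 3 were enriched, where 15.0% of all genes tested were. Another was higher below a fold of 2 and the other did not pass the test, and the median log2 fold change was 1.83. Mrpl12, the homolog of bacterial L7/L12 that contacts these GTPases, had 3803 counts in the input and, after IP, 21633 in replicate 1 and 21270 in replicate 2, 5.49-fold more after scaling (log2 2.46 ± 0.06, adjusted p = 1.08e-28). Mrpl54, a mitochondria-specific protein at the base of the stalk, had 1098 input counts against 4784 and 5127 after IP, and was enriched 4.39-fold (log2 2.13 ± 0.08), with a log2 value of 1.43 once the GC trend was removed. Mrpl53, its neighbour there, went from 858 counts in the input to 3049 and 3245, a log2 fold change of 1.83 ± 0.09. All IP values of these 3 genes lay more than 3 times above the input count. Mrpl10, which anchors the copies of Mrpl12, had 3737 counts before and 7903 and 7152 after IP (log2 0.97 ± 0.07), so that replicate 1 passed a fold of 2 and replicate 2 did not, and it passed the fold under total counts (1.07) and TPM (1.12), where the all-gene median also moved up, by 0.10 and 0.15. Mrpl11, which sits at the stalk base in all ribosomes, was the exception, with 2800 counts in the input and, after IP, 2360 in replicate 1 and 2707 in replicate 2 (log2 -0.18 ± 0.08, adjusted p = 0.053).

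5 other large subunit genes were enriched. Mrpl14, a conserved protein of the subunit interface, had 1267 input counts against 3804 and 3546 after IP (log2 1.50 ± 0.09). Mrpl51, a mitochondria-specific protein, had 2787 counts before and 7968 and 8048 after IP (log2 1.48 ± 0.07). Mrpl41 (log2 1.26), Mrpl34 (1.20) and Mrpl50 (1.11) followed, and in each the lower IP library was still more than 2-fold above the input. Of these, Mrpl34 is the counterpart of a small basic protein of the bacterial large subunit, and it was at 0.70 and below the fold with the GC trend removed. Mrpl19, which shares 22.8% of its exonic length with Gcfc2 on the opposite strand, was higher below a fold of 2 (0.27 ± 0.10). Mrpl45, Mrpl17 and Mrpl10 stood just below the fold of 2, at log2 values of 0.98, 0.97 and 0.97.

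A single large subunit gene was depleted. Mrpl1, the protein of the mobile arm beside the exit site of spent tRNA, had 1814 counts in the input and, after IP, 748 in replicate 1 and 843 in replicate 2. Both IP counts lay more than 2-fold below the input count, with a log2 fold change of -1.23 ± 0.11 (adjusted p = 2.26e-12), and with the GC trend removed the value was -0.69 and no longer past the fold. Mrpl42, a mitochondria-specific protein with the highest input level of all members per length, stopped short of a fold of 2 at -0.89, with 6415 input counts against 3405 and 3690 after IP. Mrpl24, Mrpl13, Mrpl47 and Mrpl3, the next lowest, lay between -0.76 and -0.58. Mrpl24 shares 15.5% of its exonic length with Rrnad1 on the opposite strand.

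The central protuberance and the tunnel exit held no called gene in the edgeR fit, though some of their members were called under other settings. In the central protuberance, which carries contacts to the small subunit and to tRNA, 5 of 7 members were higher and 2 lower at any fold, with a median of 0.45. Mrpl40 was highest there (log2 0.74 ± 0.07), then Mrpl46 (0.67 ± 0.09), Mrpl52 (0.54), Mrpl27 (0.45) and Mrpl18 (0.23), while Mrpl48 (-0.51) and Mrpl38 (-0.57) were lower in the IP. Mrpl38 was called depleted, at -1.21, with the GC trend removed. Around the exit of the peptide tunnel, 4 of 8 members were higher and 4 lower, and the median was 0.00. Mrpl45, which binds the inner membrane so that new peptides can be inserted there, had 4720 counts before and 9561 and 9568 after IP (log2 0.98). It passed the fold with the GC trend removed (1.05), and so did Mrpl17, which was at 0.97 in the edgeR fit and at 1.41 after removal. Both also passed under total counts (1.08 and 1.07) and TPM (1.13 for both), by no more than the shift of all genes under these scalings, and Mrpl45 without the filter on low counts (1.00). Mrpl39 (0.37) and Mrpl44 (0.31), a protein with a ribonuclease III fold, were also higher. The conserved proteins Mrpl22 (-0.31), Mrpl23 (-0.31) and Mrpl24 (-0.76) and the mitochondrial form of bacterial L29, Mrpl47 (-0.62), were lower. Neighbours in the assembled subunit therefore stood on both sides of the input.

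In the small subunit, Mrps7 had the highest fold change of all 78 members. It lies at chr11:115604140-115608036 and is the counterpart of bacterial S7, which binds the ribosomal RNA of the head of the subunit and starts its assembly. Its counts were 2193 in the input and, after IP, 18504 in replicate 1 and 18383 in replicate 2, which gives a log2 fold change of 3.03 ± 0.07, or 8.18-fold (adjusted p = 1.14e-30). Its exons meet those of Mif4gd and Gga3 on the other strand, over 6.81% and 5.95% of the exonic length. Mif4gd had 3121 counts in the input and, after IP, 8463 in replicate 1 and 8855 in replicate 2, and Gga3 had 2801, 4288 and 4693. Mif4gd was enriched as well (log2 1.43) and Gga3 was higher below a fold of 2 (0.64), and reads over exons shared with either were left out of all 3 counts.

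Mitochondria-specific proteins of the small subunit made up 5 of its 8 enriched genes. Mrps26 had 1497 input counts against 5779 and 5908 after IP (log2 1.92 ± 0.08), and was at 1.25 with the GC trend removed. Mrps25 had 2041 counts before and 6004 and 5782 after IP, and Mrps23 had 1673, 4943 and 4697, and both had a log2 fold change of 1.49, with Mrps25 at 1.79 and so above Mrps26 once the GC trend was removed. The Mrps25 gene shares 58.4% of its exonic length with Nr2c2 on the opposite strand, which moved the other way, with 370 counts in the input and, after IP, 111 in replicate 1 and 52 in replicate 2. Reads over exons of both genes were again left out. Mrps27, a pentatricopeptide repeat protein, was at 1.22 ± 0.08, and its exons overlap those of 6430562O15Rik on the opposite strand over 15.8% of their length. Mrps34 was at 1.13 ± 0.07, and at 0.41 and below the fold with the GC trend removed. Among the proteins of the mRNA entry and the decoding site, Mrps24, the counterpart of bacterial S3, had 1540 input counts against 4480 and 4603 after IP (log2 1.52 ± 0.08). Mrps12, the counterpart of bacterial S12 that monitors codon pairing, had 1392, 3067 and 3229 (log2 1.14 ± 0.09), and was at 0.80 and below the fold with the GC trend removed. Mrps6, which shares 18.6% of its exonic length with Slc5a3 on the same strand, was higher below a fold of 2 (0.87 ± 0.14). The other protein of that site, Mrps5, was lower in the IP at -0.40 ± 0.07, below a fold of 2.

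The lowest fold change of all 78 members was also in the small subunit. Mrps22, a mitochondria-specific protein in which human mutations cause a combined respiratory chain deficiency, had 1477 counts before and 546 and 522 after IP. Both IP counts lay far below the input count, with a log2 fold change of -1.51 ± 0.12, or 2.84-fold lower (adjusted p = 1.05e-13). Mrps31 was depleted by the narrowest margin, with 1899 counts in the input and, after IP, 982 in replicate 1 and 954 in replicate 2 (log2 -1.01 ± 0.10), so that replicate 1 alone did not reach a fold of 2. It was not called with the GC trend removed (-0.63), under total counts (-0.92) or TPM (-0.86), by DESeq2 (-0.99), without the filter on low counts (-0.99) or with a fixed dispersion. Mrps10 (-0.98), Mrps36 (-0.95) and Mrps14 (-0.80) lay just short of it, and Mrps14 is the counterpart of a bacterial protein of the head. Of the 3 relatives of bacterial S18, 1 was higher, 1 lower and 1 passed in neither direction. Mrps18b was higher in the IP (log2 0.43 ± 0.07, adjusted p = 1.37e-06), Mrps18c was lower (-0.66 ± 0.10, adjusted p = 1.77e-07), and Mrps18a was at 0.21 ± 0.11 and did not pass the test (adjusted p = 0.103), with a value of -0.14 once the GC trend was removed.

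The names do not always give the place of a protein. Mrps30 and Mrps18a are found in the large subunit, and Mrps36 has since been assigned to the oxoglutarate dehydrogenase complex. Mrps36 also has 3 of the 6 pseudogene entries left out here, and reads shared with such copies were not counted. Mrps30 had 3281 input counts against 3640 and 3867 after IP and did not pass the test (log2 0.15 ± 0.07, adjusted p = 0.0685). Sorted by place, the large subunit held 51 genes, with 9 enriched, 1 depleted and a median of 0.23, and the small subunit 26, with 8 enriched, 2 depleted and a median of 0.12.

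Members were also sorted by whether the bacterial ribosome has a counterpart, with Mrps30 placed in the large subunit and Mrps36 and the 3 relatives of S18 left out. In the large subunit, 3 of 30 genes with a counterpart were enriched and 1 was depleted, with a median of -0.10, and 6 of 20 mitochondria-specific genes were enriched and 0 depleted, with a median of 0.61. In the small subunit, 3 of 15 genes with a counterpart were enriched and 0 depleted, with a median of -0.06, and 5 of 9 mitochondria-specific genes were enriched and 2 depleted, with a median of 1.13. The mitochondria-specific genes of the small subunit therefore held both its lowest members, Mrps22 and Mrps31, and most of its enriched ones. Of the genes with a counterpart, 10% in the large and 20% in the small subunit were enriched, beside 15.0% of all genes tested. Of the mitochondria-specific genes, 30% and 55.6% were. Over all genes tested 13.0% were depleted. No test was made of the difference between these lists.

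**Figure D2:**
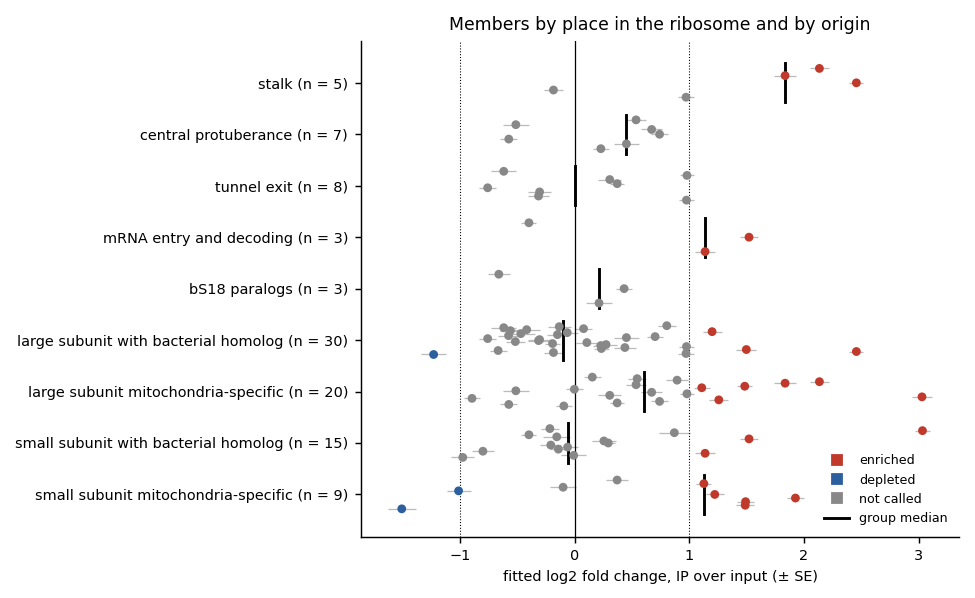
Fitted log2 fold change of IP over input (horizontal axis) for members, with bars of 1 SE. The upper 5 rows group them by place in the ribosome or, for the relatives of S18, by family. The lower 4 rows group them by bacterial counterpart. Each point is a gene, coloured by call, black lines are group medians and dotted lines mark a fold of 2. The stalk has the highest median, 1.83, the tunnel exit is centred on 0.00, and both mitochondria-specific groups have medians above those of the groups with bacterial counterparts.

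Levels per length were compared in TPM, which divides counts by the length of all annotated exons. That length can exceed the mRNA, as for Mrps23 (4916 bases against 1332). It also includes exons shared with other genes, over which reads were left out. The levels of such genes can therefore be too low. In the input the members ranged from 13.7 TPM for Mrpl48 to 535 TPM for Mrpl42, with a median of 74.8. The libraries are of bulk cells, so for such a level fewer cells with a transcript and less of it per cell cannot be told apart. The median in the IP libraries was 96.7 and 99.0. On the log2 TPM scale, the SD across members was 1.06 in the input and 1.35 in each IP library, so the levels of the members were more unequal in the IP than in the input. Mrpl12 reached 1384 and 1334 TPM in the IP libraries from 223 in the input and became the most abundant member, in the place of Mrpl42, which went from 535 to 310 and 329 TPM. Across the 78 genes, the input level and the fold change were all but unrelated (Spearman rho -0.07, a description across genes that share the 3 libraries).

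**Figure D3:**
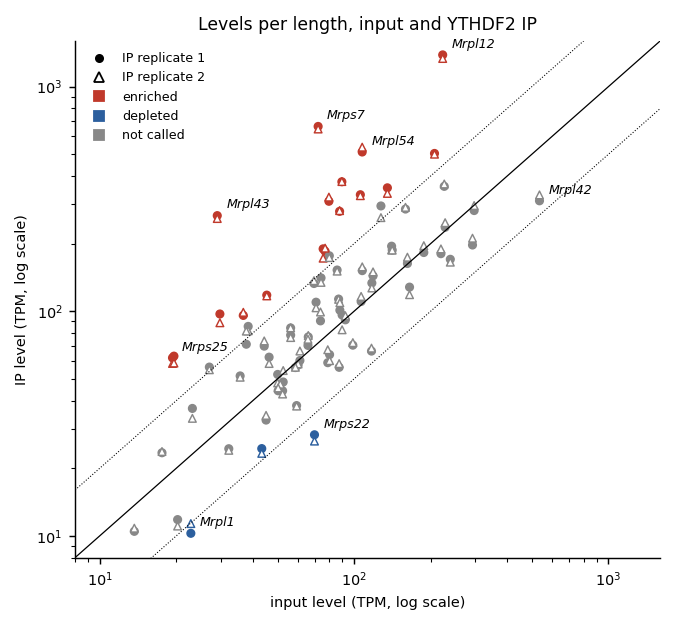
Level per length in each YTHDF2 IP library (vertical axis, TPM, log scale) against the level in the input (horizontal axis, TPM, log scale) for the 78 members. The solid line marks equal levels and the dotted lines a fold of 2, filled circles are IP replicate 1 and open triangles IP replicate 2. Enriched genes occur at low and high input levels, from Mrps25 at 19.3 TPM to Mrpl12 at 223 TPM. The Mrps25 level is understated, since reads over the exons it shares with Nr2c2 were left out while its full exonic length was used.

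The mRNAs of the members are short, with a median length of 1060 bases and 5 exons, where the other genes with a RefSeq Select mRNA that were tested have medians of 2891 bases and 9 exons. Within the members, those with few exons had the higher fold changes. Of 20 members with 2 to 3 exons, 10 were enriched and 0 depleted (median log2 1.04), of 35 with 4 to 6 exons 6 were enriched and 0 depleted (median 0.23), and of 23 with 7 or more exons 1 was enriched and 3 were depleted (median -0.31). Of the 17 enriched members, 16 had 5 or fewer exons, and the other was Mrps27 with 11. Spearman's correlation coefficient of the fold change with the number of exons was -0.56 in the large subunit and -0.24 in the small subunit, a difference that was not tested. The same direction was seen in the other genes, of which 36.6% with 2 to 3 exons, 19.7% with 4 to 6 and 8.59% with 7 or more were enriched, and 3.41%, 9.32% and 15.8% depleted. Across the 78 members, Spearman's rho of the fold change was -0.44 with the number of exons, 0.44 with the share of the mRNA in its longest exon and 0.08 with the length of the mRNA. In the 14933 other genes the same values were -0.30, 0.23 and -0.04. These correlations are descriptions across genes, which share the 3 libraries and much of their base composition.

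GC content also went with the fold change. Spearman's correlation coefficient was 0.39 in the members and 0.38 in the other genes, and of 26 members with a GC content of 53% or more, 11 were enriched and 0 depleted, where 4 of 21 below 47% were enriched and 3 depleted. In the other genes, 24.5% were enriched and 4.18% depleted at 53% or more, and 5.74% and 25.2% below 47%. The depleted Mrpl1, Mrps31 and Mrps22 had GC contents of 41.2%, 44.4% and 45.9%. The 6 most enriched members, Mrps7, Mrpl43, Mrpl12, Mrpl54, Mrps26 and Mrpl53, all had 53% or more, while Mrps25 (44.9%), Mrpl51 (45.9%), Mrpl41 (46.5%) and Mrpl50 (42.2%) were enriched with less than 47%. With the trend on GC content removed, 14 of the 17 enriched members still passed both thresholds, all but Mrpl34, Mrps12 and Mrps34, and Mrps22 alone of the 3 depleted members did. The relation with exon number was as strong after this step, at rho -0.45, and that with the longest exon stronger, at 0.54. The number of GGACT copies per kilobase was weakly related to the fold change, with rho 0.16 in the members and 0.15 in the other genes. Members with the motif had a median log2 fold change of 0.26 and the 18 without it -0.10, and 15 of the 17 enriched genes held it.

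**Figure D4:**
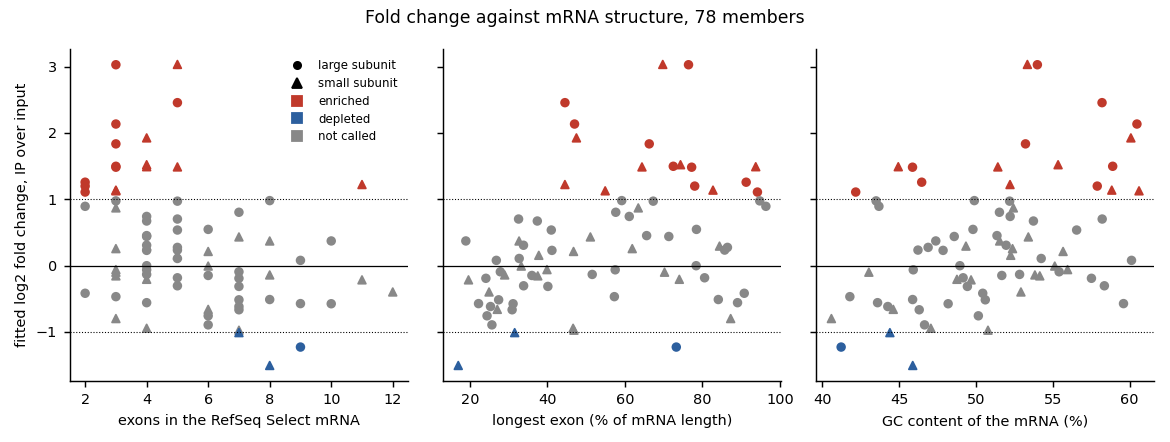
Fitted log2 fold change of IP over input (vertical axis) against the number of exons, the share of the mRNA in its longest exon (%) and the GC content of the mRNA (%), for 78 members. Circles are large subunit genes and triangles small subunit genes, colours give the call and dotted lines mark a fold of 2. Enriched genes are concentrated at 5 or fewer exons, with Mrps27 at 11 the exception, and the 3 depleted genes have 7 to 9 exons and a GC content under 47%.

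The same system holds other genes, listed by function. Of 5 ribosome proteins that carry other names, Gadd45gip1, a large subunit protein, was enriched, with 1503 counts before and 3291 and 3387 after IP (log2 1.11 ± 0.08). Dap3, the GTP-binding protein of the small subunit, was lower in the IP, below a fold of 2 (-0.28 ± 0.06). Of 25 assembly factors, 5 were enriched and 0 depleted, with a median of 0.08, beside 15.0% and 13.0% of all genes tested. Mpv17l2, an inner membrane protein needed for the assembly of the ribosome, had 1484 counts in the input and, after IP, 7544 in replicate 1 and 7886 in replicate 2 (log2 2.34 ± 0.07). Mrm2, which methylates the ribosomal RNA of the large subunit, was at 2.25 ± 0.10 and Rcc1l at 1.64 ± 0.08. Of 16 tested translation factors 2 were enriched and 2 depleted, close to the shares of all genes, with a median of 0.09. The enriched ones were Pdf, which removes the formyl group of new peptides (log2 1.73 ± 0.08), and the initiation factor Mtif3 (1.69 ± 0.13), and the depleted ones were Lrpprc (-1.18 ± 0.11), which stabilises mitochondrial mRNAs, and the elongation factor Guf1 (-1.04 ± 0.13).

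Cytosolic ribosomal proteins and the nuclear-encoded subunits of the respiratory chain were set beside the members. Of 78 cytosolic ribosomal protein genes 1 was enriched (1.28%) and 5 were depleted (6.41%), with a median log2 fold change of -0.39, and 61 were lower and 5 higher at any fold. Rpl41, which encodes a very short peptide, was the enriched one, with 45492 input counts against 114981 and 112066 after IP. Of 79 respiratory chain subunit genes 0 were enriched and 7 depleted (8.86%), with a median of -0.44, and 57 were lower and 11 higher at any fold. Over all genes tested 15.0% were enriched and 13.0% depleted, both above the shares in these 2 lists. At any fold, 28.4% of all genes tested were higher and 28.9% lower. The medians of both lists thus lay below the input and those of the mitochondrial ribosomal proteins above it, and no test was made of the difference. Many cytosolic ribosomal protein genes have near-identical copies, and reads that map to several places were left out of the counts, so their values are less certain.

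The error of these comparisons rests on the 2 IP libraries, since a single input was sequenced and its own spread was not measured. With a larger spread assumed for every gene (a dispersion of 0.1), 6 of the 17 enriched members kept both thresholds, namely Mrps7, Mrpl43, Mrpl12, Mrpl54, Mrps26 and Mrpl53, where 8.05% of all genes were enriched, and Mrps22 was the 1 depleted member, where 7.81% were depleted. No IP made with another antibody is among the libraries used here, so recovery by YTHDF2 and by the beads cannot be told apart.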

How the data were processed

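RIP-seq libraries of Dox-treated E14 ESCs (1 input, 2 YTHDF2 IP) were grouped by their titles. Per the study's methods, a cleared lysate was immunoprecipitated, while the labels describe total RNA, and the counts do not settle which was done. The labels do not say whether the IP replicates came from separate cultures, so p-values measure only the spread between these samples.

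The authors aligned reads to mm10 (fastp 0.19.4, HISAT2 2.2.1 and DESeq2 1.40.2 in the submitters' processing notes) and deposited raw counts per gene. The file headers name featureCounts 2.0.3 over RefSeq exons, with each mate counted singly and strand not used. Even values made up 61.4% to 64.7% of counts from 1 to 100, so read ends rather than fragments were counted. Total counts were 36986994 (input), 35259827 (IP replicate 1) and 35888743 (IP replicate 2).

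Members and lists were chosen with earlier results of these data known. Counts were tested with edgeR 4.0.16 (filterByExpr, TMM, robust glmQLFit and glmQLFTest, Benjamini-Hochberg adjustment) in R 4.3.3, with 1 residual degree of freedom. Named were, per subunit, the 6 highest and 6 lowest fold changes and all called members. The 5 groups by place or family, Mrps18a, Mrps30, Mrps36 and the genes with over 15% exon overlap were named too. From other lists, at most the 3 highest and 3 lowest were named. The tests were tried on simulated counts. Alternatives were DESeq2 1.42.0, total counts, size factors, no filter, halved counts, a fixed dispersion, TPM, GC trend removal, leaving out either IP library and grouping by place. TPM and the motif used the exonic lengths in the table and GRCm38 sequence. 1 of 17 translation factors could not be matched.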

Additional observations from a re-analysis of the deposited data

How the results depend on the processing

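No paired analysis was possible because the input carries no replicate number that an IP library shares. The direction held for 49 of the 51 members named, under every alternative run. The exceptions, Mrps18a and Mrps30, turned to -0.14 and -0.068 once the GC trend was removed. The named members include the highest and lowest of each subunit. Among the members not named, several also changed sign under an alternative, some of them lower at an adjusted p-value under 0.05 in edgeR's quasi-likelihood test. DESeq2 on the same counts left the 17 enriched members as they were, while total counts gave 20 (adding Mrpl10, Mrpl17 and Mrpl45), no filter 18 (adding Mrpl45) and TPM 22 (adding these 3, Mrpl57 and Mrps6). The enriched calls over all genes rose as well, from 2936 to 3304, 3010 and 3558. A fixed dispersion of 0.1 was the alternative that took the most calls, leaving 4 enriched and 0 depleted large subunit members, 2 enriched and 1 depleted small subunit members, and 1577 enriched and 1531 depleted of all genes in place of 2936 and 2543. The small subunit had 1 depleted member in place of 2 under DESeq2, total counts, no filter and TPM, as Mrps31 stayed under the fold, and 1 to 3 members past the fold alone, without a test, when either IP library was left out. The median of the large subunit was 0.33 under total counts, 0.38 under TPM and 0.13 with the GC trend removed, and 0.23 to 0.27 when either IP library was left out. The median of the small subunit was 0.25, 0.31 and 0.029 under the same 3 settings, and these settings moved the median of all genes by 0.10, 0.15 and -0.05. With the GC trend removed, Mrpl34 (0.70), Mrps12 (0.80), Mrps34 (0.41), Mrpl1 (-0.69) and Mrps31 (-0.63) no longer passed the fold, while Mrpl17 (1.41), Mrpl57 (1.37, named after its value was seen), Mrpl45 (1.05), Mrpl38 (-1.21) and Mrps10 (-1.13) did. The cause of these shifts was not tested. The counts behind the members, at least 511 in each library, keep counting error small, and the precision is set by the number of libraries. The alternatives on TPM, GC content and single IP libraries for the counts of calls, and those on the filter and on halved counts for single genes, were chosen after seeing the data.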
